A study of Mus musculus with 64 samples.

Results

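The chromosome 5 cluster of GABA-A receptor genes was followed in striatum, and its members were the 4 subunit genes Gabrg1, Gabra2, Gabra4 and Gabrb1, found by symbol among the 23420 genes of the count table. All 4 passed the filter on low counts, as did 16113 genes in all. RNA had been sequenced from striatum punches of 16 F2 mice, bred from C57BL/6NJ (B6NJ) and C57BL/6J (B6J), 2 closely related substrains. At 1 selected locus, which the labels do not name, 8 mice were homozygous for the mutant B6NJ allele (N/N, labelled binge-prone) and 8 for the wild-type B6J allele (J/J, labelled binge-resistant). By the sample labels each genotype comprised 5 females and 3 males, whereas the series text gives 4 of each sex; the sample labels were used for every value split by sex. All mice were 69 to 100 days old when killed on day 24, right after 5 min on the elevated plus maze, a test of anxiety-like behaviour. The alleles carried elsewhere in the genome, the Gabra2 locus included, are not given by the labels, so N/N and J/J do not state the Gabra2 genotype. After summing the 4 runs of each mouse the libraries held 27405386 to 51334152 gene reads.

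GABA-A receptors are the chloride channels through which GABA, the main inhibitory transmitter of the brain, silences neurons quickly. Each channel is a ring of subunits, usually built from alpha, beta and gamma or delta types, and the alpha type sets much of where the channel sits and which drugs it answers to. Most neurons of the striatum are medium spiny neurons, which themselves release GABA. The alpha 2 subunit, encoded by Gabra2, serves synaptic inhibition, also at the axon initial segment, and is a target of benzodiazepines. The alpha 4 subunit (Gabra4) joins delta in receptors outside synapses that carry a steady inhibitory current. The beta 1 subunit (Gabrb1) is a structural partner of the alphas, and gamma 1 (Gabrg1) is found in some neurons and in astrocytes. As background, B6J mice are known to carry a spontaneous intronic deletion in Gabra2 that lowers its RNA and that B6N mice lack.

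In the GRCm38 assembly, the same as mm10, the genes lie on chromosome 5 in the order Gabrg1 (ENSMUSG00000001260.10, chr5:70751047-70842617, minus strand), Gabra2 (ENSMUSG00000000560.9, chr5:70957597-71095849, minus), Gabra4 (ENSMUSG00000029211.11, chr5:71569749-71658308, minus) and Gabrb1 (ENSMUSG00000029212.11, chr5:71658113-72149037, plus). Cox7b2, a gene of a cytochrome c oxidase subunit, lies between Gabra2 and Gabra4. Gabra4 and Gabrb1 are arranged head to head and share 46 bases of annotated exon, so a read there could have been counted as ambiguous. Their RefSeq starts are 387 bases apart. The RefSeq start of Gabrb1 (71657921) lies before the gene start given above, so the 2 annotations differ there. It also lies inside the annotated body of Gabra4. No other gene of the count table shared exon bases with any of the 4.

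The start regions are shown because the head-to-head pair Gabra4 and Gabrb1 turns out to differ most in RNA level and because Gabra2 is the member with the largest difference between genotypes. Each run is the 300 bases from 250 before to 50 after the RefSeq start, 5′ to 3′ on the gene's own strand (GRCm38.p6), with every CG dinucleotide in capitals. Over 32851 such windows of mouse genes the median was 7 CG, and 94.6% held at least 1. CG reads the same on both strands, and matches cannot overlap each other.
Gabra4 (chr5:71658259-71658558, minus strand): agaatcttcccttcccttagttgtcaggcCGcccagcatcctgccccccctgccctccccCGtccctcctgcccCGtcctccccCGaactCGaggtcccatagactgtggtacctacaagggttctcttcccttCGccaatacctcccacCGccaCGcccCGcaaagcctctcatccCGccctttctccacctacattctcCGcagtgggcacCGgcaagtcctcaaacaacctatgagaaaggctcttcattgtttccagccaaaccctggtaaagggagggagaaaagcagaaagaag
Gabrb1 (chr5:71657671-71657970, plus strand): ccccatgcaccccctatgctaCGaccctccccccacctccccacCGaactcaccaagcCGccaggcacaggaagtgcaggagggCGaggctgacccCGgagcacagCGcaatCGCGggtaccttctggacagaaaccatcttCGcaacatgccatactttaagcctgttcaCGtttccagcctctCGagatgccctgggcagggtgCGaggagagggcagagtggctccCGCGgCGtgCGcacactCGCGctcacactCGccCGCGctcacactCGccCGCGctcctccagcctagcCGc
Gabra2 (chr5:71095800-71096099, minus strand): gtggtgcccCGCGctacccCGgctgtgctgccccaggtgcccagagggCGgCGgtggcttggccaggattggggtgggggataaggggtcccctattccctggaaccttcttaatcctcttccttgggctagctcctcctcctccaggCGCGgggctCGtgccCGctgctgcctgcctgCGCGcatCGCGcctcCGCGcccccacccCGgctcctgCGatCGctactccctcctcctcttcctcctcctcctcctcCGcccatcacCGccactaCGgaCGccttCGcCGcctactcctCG
The Gabra2 and Gabrb1 windows each held 25 CG, which 18.4% of all windows matched or exceeded. The Gabra4 window held 12 (39.6% had as many), and that of Gabrg1, which is not shown, held 3 (31.4% had as few). RefSeq gives Gabrb1 a second start, whose window (chr5:71699682-71699981, plus strand, not shown) held 9 CG, and the share of Gabrb1 reads from either start was not analysed here.

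Levels were compared between genes as CPM (reads scaled to a common library size) per kb of annotated exon. Gabra4 was the highest, at 37.0 ± 4.76 CPM per kb (SD, n = 16). Gabra2 came second at 8.25 ± 1.66, then Gabrg1 at 5.61 ± 0.978 and Gabrb1 last at 1.67 ± 0.118. The order was the same in 15 of 16 mice. The exception was J/J female 16, in which Gabrg1 (6.78 CPM per kb) was above Gabra2 (5.64). Gabra2 and Gabrg1 were the neighbours in this order whose ranges over mice overlapped (5.64 to 11.5 and 4.44 to 7.86). Within a mouse, Gabra4 was 22.2 ± 2.77 times Gabrb1 per kb (SD, n = 16), and the starts of these genes lie next to each other. That ratio rests on annotated exon lengths of 6.083 kb and 13.838 kb, while the annotation used for counting is not given. Not divided by length, mean levels were 225 CPM for Gabra4, 63.0 for Gabra2, 44.1 for Gabrg1 and 23.1 for Gabrb1, in the same order. Dividing by the longest annotated transcript in place of all exons kept the order, with levels of 54.7, 10.8, 9.25 and 1.68 CPM per kb. For Gabrb1 that transcript (13737 bases) is nearly as long as all its exons, so its level could hardly change.

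**Figure D1:**
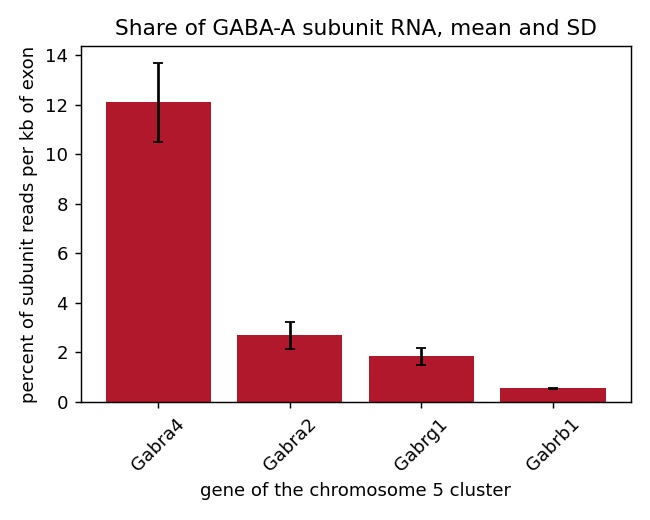
Share of GABA-A subunit reads per kb of exon (y axis, percent) taken by each of the 4 cluster genes (x axis), as mean and SD over 16 mice. Gabra4 takes 12.1%, and Gabra2, Gabrg1 and Gabrb1 take 2.70% or less.

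Set among all GABA-A subunits, the 4 genes together supplied 17.2% ± 1.93 of the subunit reads per kb (SD, n = 16; range 13.7% to 21.1%). Gabra4 was at rank 4 with 12.1%, close to Gabrd (13.1%), the delta subunit with which alpha 4 assembles. Gabra2 followed far below at rank 9 with 2.70%, then Gabrg1 with 1.84% and Gabrb1 with 0.546%. Of the alpha subunits alone, Gabra4 made up 29.8% and Gabra2 6.63% of reads per kb. Gabrb1 was 1.63% of the beta subunits, and Gabrg1 was 15.04% of the gamma subunits. All these shares depend on the annotated exon lengths, of which that of Gabrb1 (13.838 kb) is the longest. In whole punches, fewer cells of a type and less RNA per cell cannot be told apart.

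Gabra2 was the cluster gene with the largest difference between genotypes, higher in N/N mice by 1.21-fold, but neither it nor any other gene passed the adjusted threshold. In CPM, the 5 N/N females had 53.9, 61.1, 68.6, 71.3 and 74.8 and the 3 N/N males had 54.4, 79.9 and 87.9. The 5 J/J females had 43.1, 49.9, 57.8, 59.0 and 80.0, and the 3 J/J males had 52.9, 54.2 and 59.6. The genotypes overlapped: J/J female 10 had the second highest value of all mice, and N/N male 12 was the only N/N mouse outside the J/J range (43.1 to 80.0 CPM). N/N female 13 and N/N male 9 were below the J/J median. Even so, 6 of 8 N/N mice were above the J/J median (56.0 CPM), and 7 of 8 J/J mice were below the N/N median (70.0 CPM). Mean levels were 69.0 ± 12.1 CPM for N/N and 57.1 ± 10.8 CPM for J/J (SD, n = 8 each).

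On the log2 scale the genotype effect on Gabra2 (N/N over J/J) was 0.27 (SE 0.122), with a 95% interval of 1.01-fold to 1.45-fold. Its p was 0.0409 before and 0.712 after Benjamini-Hochberg adjustment over all 16113 genes (edgeR's quasi-likelihood test), which placed it at rank 888. Gabra2 was the 1 member of 4 with an unadjusted p under 0.05, a level that 1095 genes (6.80%) reached. As each mouse was left out, that p stayed under 0.05 in 4 of 16 fits, and it was 0.0945 without N/N male 12. At an adjusted p under 0.05 the count was 0 of the 4 members and 0 of all genes (0%), by edgeR, DESeq2 and limma-voom alike. The difference ranged from 0.21 without N/N male 12 to 0.36 without J/J female 10 when each mouse was left out, and every such adjusted p was 0.445 or more.

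The other 3 members differed less. Gabrg1, the gamma 1 gene, was at 45.6 ± 9.53 CPM in N/N mice (lowest 36.5, median 42.1, highest 61.8) and at 42.6 ± 5.55 CPM in J/J mice (lowest 34.9, median 41.0, highest 53.4). Its log2 fold change was 0.10 (SE 0.117), with an interval of 0.899-fold to 1.28-fold and an adjusted p of 0.843. The highest values, 61.8 and 56.6 CPM, belonged to N/N male 12 and N/N female 11. These mice stood apart in Ttr, a choroid plexus gene, with 14.9 and 22.7 CPM against at most 1.86 in the other 14. The other tested choroid plexus markers did not set both mice apart. Kl was highest in N/N female 13 (4.10 CPM), and Clic6 was higher in N/N female 2 (12.1 CPM) than in N/N male 12 (11.9 CPM). Kcnj13 was at 0.422 CPM in mouse 11 and 0.282 in mouse 12, against 0.854 in J/J male 8. Since mice 11 and 12 are both N/N and the 2 highest for Gabrg1, leaving them out lowers the N/N mean whatever set them apart. The Gabrg1 difference was then -0.06 (SE 0.0875), and the part of choroid plexus RNA in it was not tested.

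Gabra4 was at 227 ± 34.8 CPM in N/N mice (lowest 164, median 224, highest 278) and at 222 ± 24.0 CPM in J/J mice (lowest 197, median 218, highest 274). Its log2 fold change was 0.03 (SE 0.0907; 0.892-fold to 1.17-fold; adjusted p = 0.947), and it turned to -0.11 with the cortical marker score of each mouse in the model. Gabrb1 was at 22.7 ± 2.13 CPM in N/N mice (19.6 to 26.5) and at 23.5 ± 0.895 CPM in J/J mice (22.3 to 24.7). Its log2 fold change was -0.05 (SE 0.0513; 0.893-fold to 1.04-fold; adjusted p = 0.810). For both genes the N/N range enclosed the J/J range. The intervals of both genes exclude a change as large as the fitted Gabra2 difference in the same direction.

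**Figure D2:**
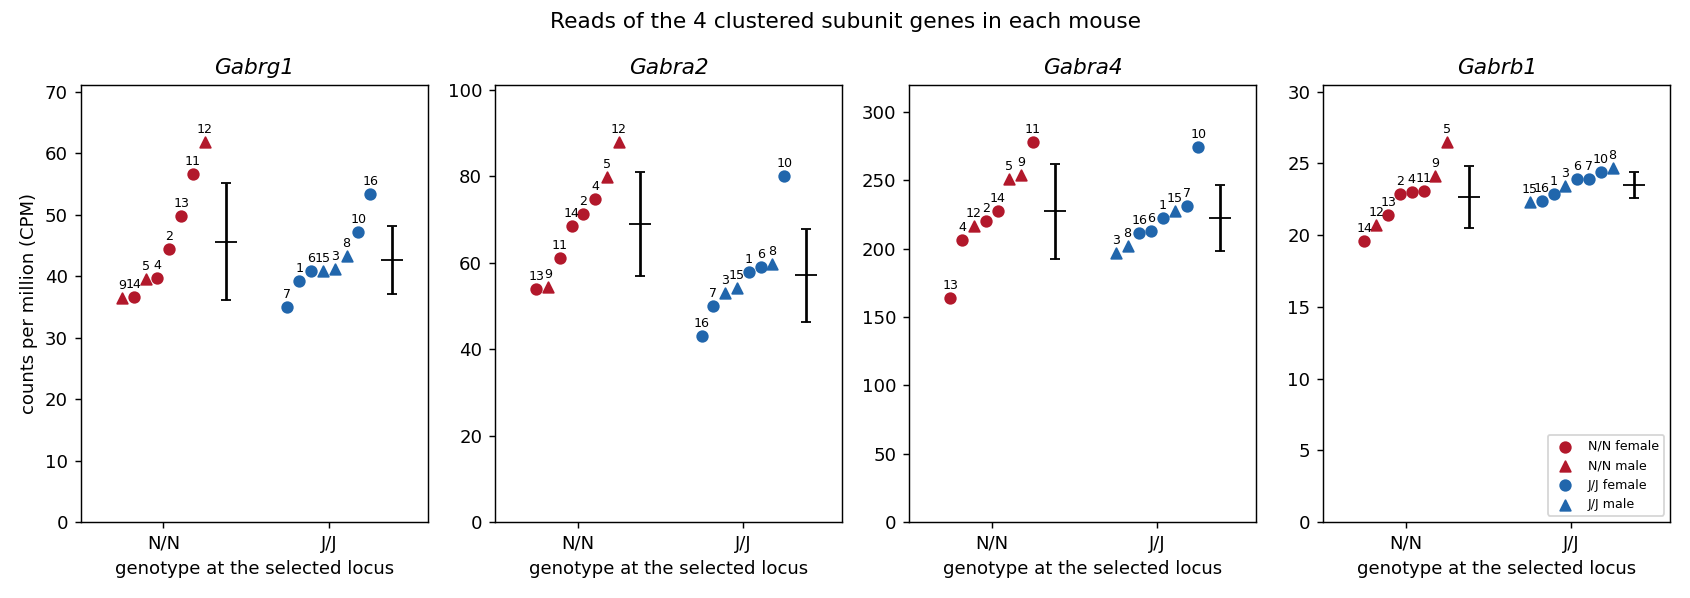
Reads of each cluster gene in every mouse (y axis, CPM from 0) by genotype at the selected locus (x axis); circles are females, triangles males, numbers the mice, and bars the mean ± SD of 8. For Gabra2, 6 of the 8 highest mice are N/N, while J/J female 10 (80.0 CPM) and N/N male 12 (87.9 CPM) show the overlap of the genotypes.

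Marker levels of the cell types in the punch are given beside these values, and none of the markers passed the adjusted threshold. The summed level of 12 medium spiny neuron markers had a median of 8099 CPM in N/N mice (5563 to 9824) and 6989 CPM in J/J mice (4389 to 8462), and all 12 had log2 fold changes above 0 (median 0.17). The 11 cortical glutamatergic markers, from tissue that borders the striatum, had medians of 1124 CPM in N/N mice (519 to 1576) and 1349 CPM in J/J mice (1000 to 1916), and all 11 were below 0 (median -0.29). The 11 oligodendrocyte, 6 oligodendrocyte precursor, 10 astrocyte and 6 microglia markers all had values above 0 (medians 0.18, 0.18, 0.09 and 0.08). Above 0 were also 5 of 6 globus pallidus and thalamus markers (median 0.19), 4 of 5 endothelial (0.14), 6 of 8 interneuron (0.10) and 3 of 4 tested choroid plexus markers (0.37). Of all 16113 tested genes 8204 were above 0. Olig2 is on both the oligodendrocyte and the precursor list, so the counts of these lists share a gene. An unadjusted p under 0.05, which 6.80% of all genes reached, was found for 4 of 6 precursor and 2 of 4 choroid plexus markers. The count was 2 of 6 for microglia, 2 of 11 for oligodendrocyte, 0 of 10 for astrocyte and 0 of 11 for cortical markers. It was 1 of 12 for medium spiny neuron, 1 of 5 for endothelial, 1 of 8 for interneuron and 1 of 6 for globus pallidus and thalamus markers. No marker was at 0. With the cortical or the oligodendrocyte score in the model, the Gabra2 difference was 0.27 and 0.25, and its unadjusted p went to 0.0771 and 0.0895 (edgeR).

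In each sex the mean of Gabra2 was again higher in N/N mice, and the log2 genotype effect was 0.19 in females (SE 0.156, edgeR adjusted p = 0.960) and 0.41 in males (SE 0.201, adjusted p = 0.454). No gene passed in either sex (0%) in this model of all 16 mice. A fit of the 6 males alone called 242 genes, none of them a member, and the number of genes it tested is not reported here. In the model of all 16 mice, unadjusted p-values under 0.05 were found for 711 genes (4.41%) in females and 1815 (11.3%) in males, and for 0 of the 4 members in either. For the fit of the males alone the share of all genes with an unadjusted p under 0.05 is not reported here. In that fit Gabra2 had a log2 effect of 0.41 (p 0.0396, adjusted p = 0.272, edgeR) and Gabra4 one of 0.20 (p 0.0338, adjusted p = 0.252, edgeR). The difference between the sexes in this effect was itself -0.23 (SE 0.254; adjusted p = 0.808, with 0% of genes called; 6.94% had an unadjusted p under 0.05, and 0 of 4 members), so a sex difference was not detectable in these mice. For Gabra4 the effects were -0.07 in females and 0.20 in males, and their difference of -0.27 (SE 0.179) had an adjusted p of 0.701. Without mice 11 and 12 that difference was -0.44 (SE 0.156; p 0.0126, adjusted p = 0.168, edgeR). For Gabrg1 and Gabrb1 the sexes differed by -0.06 (SE 0.249) and -0.11 (SE 0.105). The latter was -0.22 (adjusted p = 0.255) without those mice.

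No difference between females and males was detectable in the 4 genes. The log2 fold change of females over males was -0.05 for Gabra2 (SE 0.126), 0.0027 for Gabra4 (SE 0.0936), 0.01 for Gabrg1 (SE 0.121) and -0.05 for Gabrb1 (SE 0.0529). All 4 adjusted p-values were 0.951 or more, while 9 genes (0.0559%) passed for sex. At an unadjusted p under 0.05 the count was 0 of 4, beside 4.95% of all genes.

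**Figure D3:**
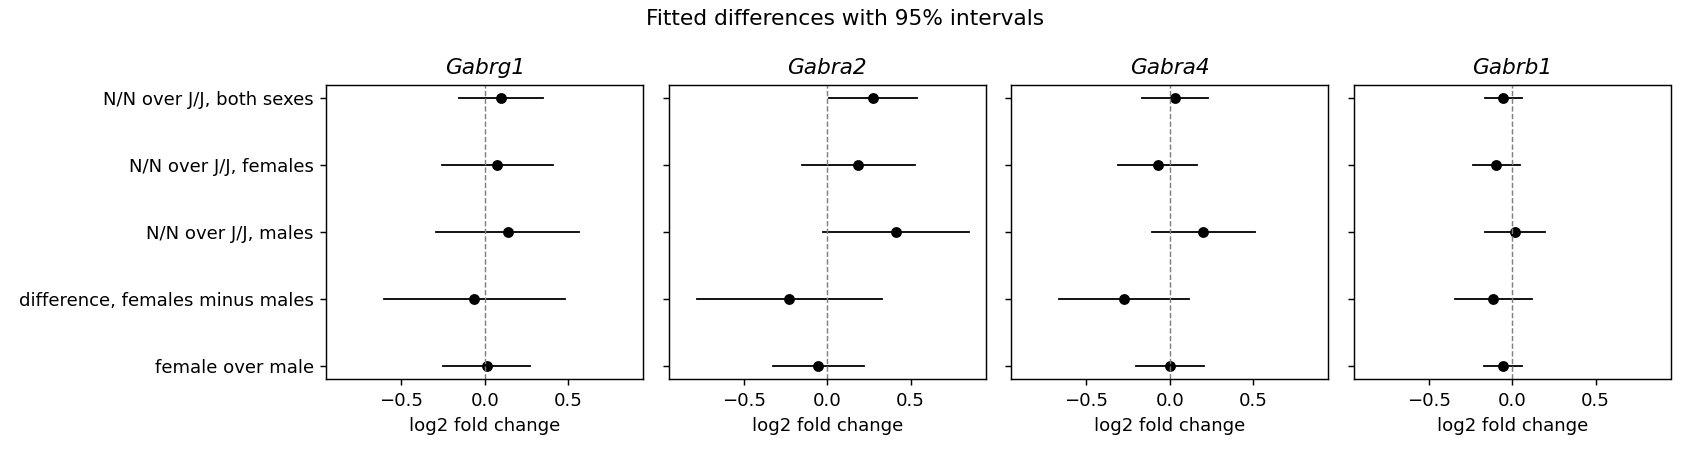
Fitted log2 fold changes (x axis) of the 4 cluster genes for genotype, for genotype in each sex, for the difference of these effects and for sex (rows), each point with its 95% interval. Among them only the interval of Gabra2 for genotype in both sexes (0.27, from 0.0082 to 0.54) lies off 0.

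Since library scaling cannot touch a ratio within a mouse, the part of the cluster's RNA that came from Gabra2 was compared as well. Gabra2 made up 16.9% ± 2.75 of the reads per kb of the 4 genes in N/N mice (SD, n = 8; 12.8% to 20.4%) and 14.5% ± 1.70 in J/J mice (11.6% to 16.5%). The mean log2 share was 0.20 higher in N/N, and 6 of 8 N/N mice lay above the J/J median of 14.9%. An exact two-sided permutation of genotype within sex, over 5040 regroupings, gave p = 0.0901 (n = 8 each). The share thus did not pass 0.05. It did so without N/N male 9 (exact p = 0.0302) or without N/N female 11 (exact p = 0.0313), and the value stayed between 0.16 and 0.26 as each mouse was left out.

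The cluster genes were unequally variable over the 16 mice. Gabra2 varied most, with 2.04-fold between the highest and the lowest mouse and an SD of log2 CPM of 0.28, above that of 96.8% of the 4589 genes within 2-fold of its level. Gabrg1 spanned 1.77-fold (SD 0.24, above 94.2% of genes at its level) and Gabra4 1.70-fold (SD 0.19, above 89.0%). Gabrb1, the lowest, spanned 1.35-fold (SD 0.10, above 44.5%). Counting error was small beside this. Gabra2 had 1210 to 3837 reads a mouse, for which counting alone gives a coefficient of variation of 2.17%, against an estimated biological one of 17.0%. For Gabrb1, with 596 to 1180 reads, the corresponding values were 3.60% and 7.17%. The widest gap in the ordered Gabra2 values, between J/J female 16 and J/J female 7, was 0.21 on the log2 scale, or 20.7% of the whole range.

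No pair of the 4 genes passed a test for rising and falling together over mice. Of the 6 pairs, Gabra4 and Gabrb1 had the highest correlation of log2 CPM (Pearson r = 0.35, permutation p = 0.177; Spearman rho = 0.30), and r was 0.29 without the 2 mice farthest from the Gabra4 median. Gabra2 and Gabra4 followed (r = 0.30, permutation p = 0.261; rho = 0.29; 0.37 without the 2 farthest mice). Gabrg1 and Gabrb1 had the lowest value (r = -0.29, permutation p = 0.273; rho = -0.29; -0.10 without the 2 farthest). Single mice moved it from -0.59 without N/N female 14 (permutation p = 0.0201) to -0.089 without N/N male 12. Gabrg1 and Gabra2, neighbours on the chromosome and in level, had r = 0.18 (permutation p = 0.494; rho = 0.19), which turned to -0.15 without mice 12 and 11. For Gabra2 and Gabrb1 r was -0.0022 (permutation p = 0.994; rho = 0.08; 0.18 without the 2 farthest), and for Gabrg1 and Gabra4 -0.05 (permutation p = 0.837; rho = -0.24; -0.37 without them). Adjusted over the 6 pairs, every p was 0.547 or more. Values centred on the 4 genotype by sex groups gave r from -0.27 to 0.32.

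Ranked by r with Gabra2 among the other 16112 tested genes, Gabra4 stood at 1815, Gabrg1 at 3866 and Gabrb1 at 8020. The head-to-head partners Gabra4 and Gabrb1 stood at 3536 and 2447 in each other's lists.

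**Figure D4:**
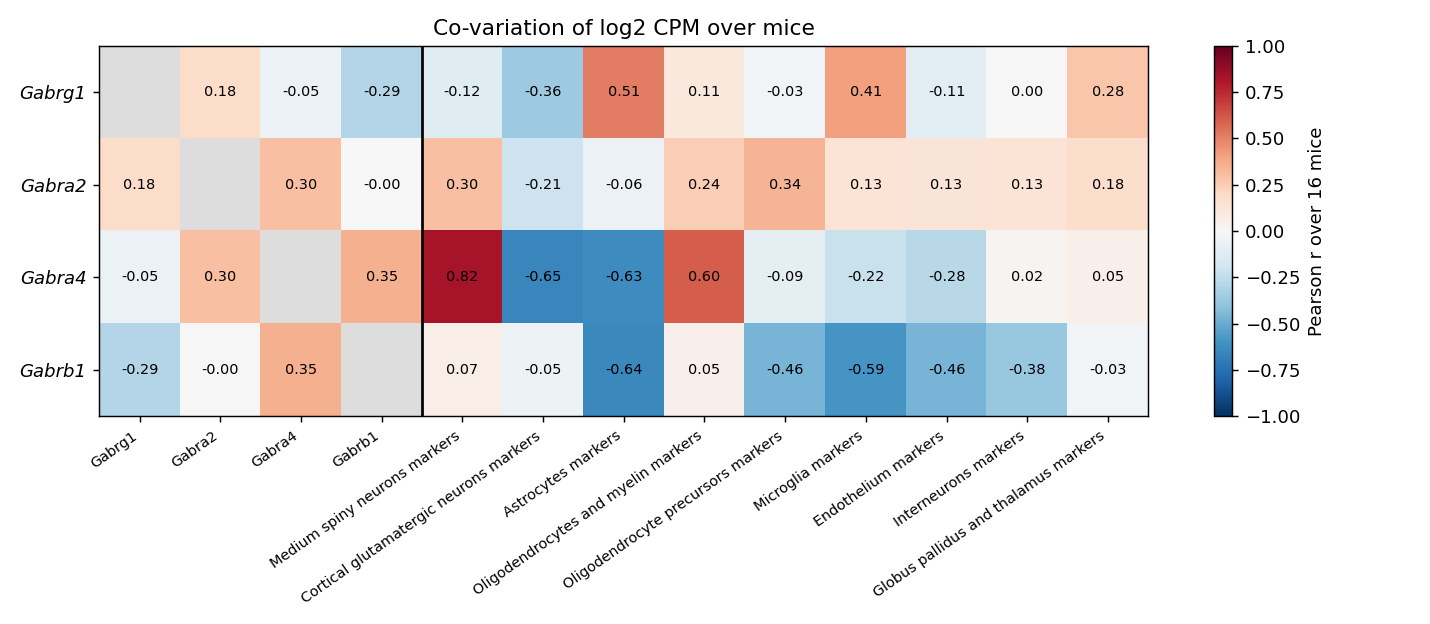
Pearson r of log2 CPM over 16 mice (colour and printed value) of the 4 cluster genes (rows) with each other and with the mean log2 CPM of 9 cell type marker lists (columns). Gabra4 has 0.82 with medium spiny neuron markers, whereas the Gabra2 row holds no value above 0.34.

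Gabra2 varied apart from most of the transcriptome. Its absolute r was above 0.5 with 454 of 16112 genes (2.82%). The median gene had 13.8%, and 0.414% of genes at a like level had a smaller share than Gabra2. Among 87 genes within 2-fold of its level and 10% of its SD the median share was 23.3%, and none was lower than that of Gabra2. Gabra4 lay at the other end, with 4195 genes (26.0%), a larger share than that of 90.8% of genes at its level. Among 87 genes matched to Gabra4 in level and SD in the same way, the median share was 23.7%, and 74.7% had a smaller one. Gabrg1 had 10.4%, and 6.45% of its 155 matched genes (median 21.7%) had a smaller share. Gabrb1 had 11.4%, and 31.5% of its 969 matched genes (median 14.3%) had a smaller share. These shares are descriptions of 16 mice and carry no test.

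The genes most like Gabra2 were Prdm16, a zinc-finger transcription regulator (chromosome 4, r = 0.83, rho = 0.81), and Sgce, epsilon-sarcoglycan, the human form of which is mutated in myoclonus-dystonia (chromosome 6, r = 0.77, rho = 0.83). Dnajc14, a chaperone of the DnaJ family (0.70), Hexim1, an inhibitor of the elongation factor P-TEFb (0.69), Pde9a, a cGMP phosphodiesterase (0.69), and Grip1, a scaffold that binds AMPA receptors (0.69), came next. Centred on the 4 groups, these 6 had r from 0.60 to 0.77. Without mice 12 and 16, the farthest from the Gabra2 median, they had 0.74 (Prdm16), 0.65 (Sgce), 0.56 (Grip1), 0.51 (Dnajc14), 0.51 (Pde9a) and 0.44 (Hexim1). At the other end were Rdh9, a retinol dehydrogenase gene (r = -0.81), Alyref2 (-0.70) and Fpgs, which adds glutamates to folate (-0.69). They are the extremes of 12708 ranked genes, picked by this r, and so have no test.

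The other members had closer companions. For Gabra4 these were Spock3, a brain proteoglycan (r = 0.96), Osbpl8, a lipid transfer protein (0.95), and Ppp1r9a, the actin-binding spine protein neurabin (0.95). Gabrg1 went with Sh3bgrl (0.89), Smo, the transducer of Hedgehog signals (0.88), and Eci2, an enzyme of fatty acid breakdown (0.88). Gabrb1 went with Usp34, a ubiquitin protease (0.89), Rlf, a zinc-finger protein (0.88), and Atrx, a chromatin remodeller (0.86). None of these genes, nor any of those closest to or farthest from Gabra2, lies on chromosome 5.

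Set against marker lists of the cell types in the punch, the members again went separate ways. Gabra4 followed the medium spiny neuron markers (r = 0.82, rho = 0.94, permutation p = 0.00005), with an adjusted p of 0.002 over 40 relations of members and lists. That r was 0.80 without mice 13 and 11 and 0.82 within the 4 groups. Its r was -0.65 with cortical markers (rho -0.68), -0.63 with astrocyte markers (rho -0.48) and 0.60 with oligodendrocyte markers (rho 0.56), each with an adjusted permutation p of 0.0833. These reached -0.69, -0.53 and 0.34 without those mice. Gabrb1 had r = -0.64 with astrocyte markers (rho -0.70, adjusted permutation p = 0.0833; -0.70 without the 2 farthest mice) and -0.59 with microglia markers (rho -0.65, adjusted permutation p = 0.0950; -0.62).

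Gabrg1 had r = 0.51 with astrocyte markers (rho 0.53, permutation p = 0.0437, adjusted p = 0.194; 0.47 without mice 12 and 11). Without those mice its r was larger in size with oligodendrocyte (-0.57), interneuron (-0.505) and medium spiny neuron markers (-0.495). With all mice these lists had 0.11, 0.0022 and -0.12. Choroid plexus aside, the other lists had -0.22 to 0.30 without those mice. Whether astrocytes account for the Gabrg1 values was not tested. No pooled r is given for choroid plexus markers, because mice 11 and 12 stood apart in Ttr, one of the tested markers of that list. Over the other 14 mice r with that list was 0.52 for Gabrg1, -0.40 for Gabra2, -0.28 for Gabra4 and -0.60 for Gabrb1. For the remaining lists Gabra2 had no r beyond 0.34 in size (oligodendrocyte precursors, rho 0.23, permutation p = 0.199; 0.17 without the 2 farthest mice), and its adjusted p was 0.529 or more.

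Other GABA-A subunits were compared as the rest of the receptor family. Of 15 listed genes outside the cluster 10 were tested, with 4 genotype effects above and 6 below 0 and a median of -0.07 (log2, N/N over J/J), beside 0.0017 for all tested genes. None passed the adjusted threshold (0% of all genes did), and 2 had an unadjusted p under 0.05, against 6.80% of all genes. These were Gabrb2, a main beta subunit of the adult brain (-0.14, SE 0.0601), and Gabra5, an alpha subunit of mostly extrasynaptic receptors (-0.18, SE 0.0809). Gabra3 also had a value below 0 (-0.29, SE 0.137), and Gabrr2, a rho subunit near the detection limit at 0.439 CPM, had 0.46 (SE 0.229). Each of these had an adjusted p of 0.712.

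Of 28 genes of GABA synthesis, transport, anchoring and metabotropic GABA receptors, 21 had values above and 7 below 0, with a median of 0.03. Of all 16113 tested genes 8204 were above 0, with a median of 0.0017. None of the 28 passed the adjusted threshold (0% of all genes did), and 2 had an unadjusted p under 0.05, beside 6.80% of all genes. The smallest p belonged to Abat, GABA transaminase, which breaks GABA down (0.18, SE 0.0678), and Slc6a11, the glial GABA transporter GAT-3 (0.20, SE 0.0883). Gad2, a GABA-making enzyme (0.22, SE 0.109), and Slc32a1, the vesicular GABA transporter (0.23, SE 0.122), followed. All 4 had adjusted p-values of 0.712 to 0.715. The medium spiny neuron markers given above, whose cells make GABA, were above 0 in the same mice, and their part in these values was not tested.

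Genes around the cluster were split in direction. Of 29 genes in the table within 2 Mb of its outer ends 22 were tested, 10 above and 12 below 0, with a median of -0.01. One of them, Usp46, a ubiquitin protease, had an unadjusted p under 0.05 (-0.11, SE 0.0515, p 0.0450, edgeR), beside 6.80% of all genes, and 0 passed the adjusted threshold (0%). Next by p were Cwh43 (-0.21, SE 0.111), Guf1 (-0.12, SE 0.0624), Slc10a4, a vesicular protein of the bile acid transporter family (0.24, SE 0.140), Corin, a protease that activates natriuretic peptides (-0.39, SE 0.260, at 0.296 CPM), and Dcun1d4 (-0.06, SE 0.0407). Over mice, the r of neighbours with Gabra2 ran from -0.30 (Usp46 and Guf1) to 0.26. The highest were Zar1 (0.26) and Spata18 (0.24), both under 0.3 CPM, then Slc10a4 (0.23) and Slain2, a microtubule regulator (0.17).

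**Figure D5:**
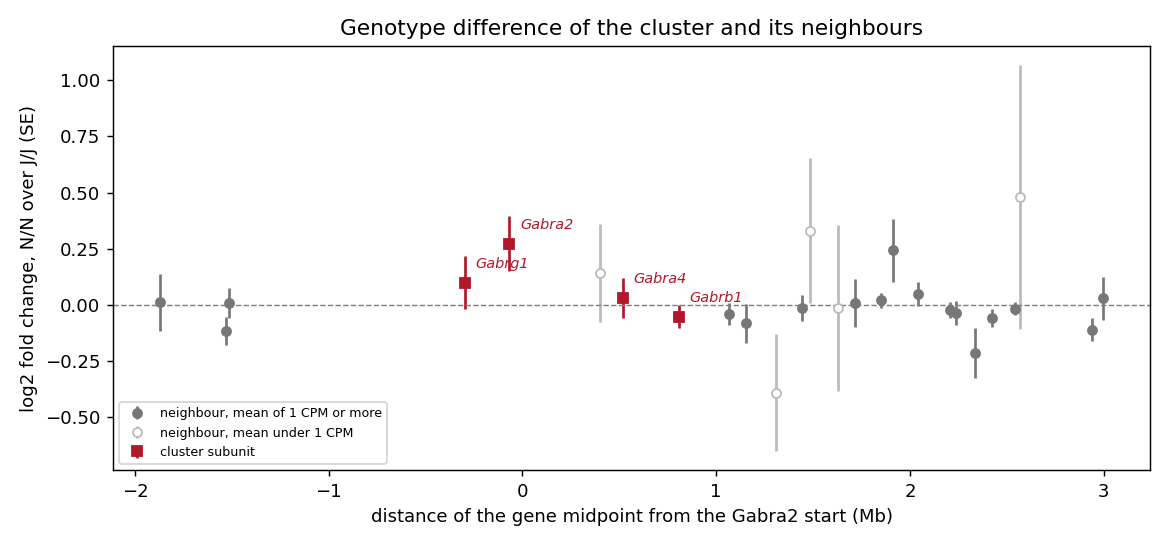
Genotype effect (log2 of N/N over J/J) with its SE (y axis) for the cluster genes (red squares) and tested genes within 2 Mb of the cluster (circles, open where the mean is under 1 CPM), by distance of the gene's midpoint from the Gabra2 start in Mb (x axis). Gabra2 (0.27) lies above the neighbours with a mean of 1 CPM or more, and the median of all tested neighbours is -0.01.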

How the data were processed

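Stranded poly(A) libraries of 16 striatum punches were read as 50 bp single ends in 4 runs, per the labels' protocols. The deposited values are raw read counts per gene, 1 table for each mouse and run. Per the submitters' processing notes the authors used FastQC 0.11.3, TopHat2 2.1.0 with mm10 and HTSeq 0.6.1p1, and edgeR 3.8.6 and limma 3.22.7 are also named. The annotation release and strand setting are not given in the sources used here. The 5 summary rows that name no gene held 42.6% of reads and were left out.

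Counts were summed over the 4 runs of a mouse, since the mouse is the replicate, so p-values measure the spread between mice. By cage label mice 10 and 11 shared a cage. Genotype and sex were fitted in edgeR 4.0.16 (R 4.3.3) with TMM factors of 0.970 to 1.025, the robust quasi-likelihood F test and the filterByExpr filter (minimum count 10 and minimum total 15, with the 4 groups given). The effects within each sex came from a 4-group model. P-values were adjusted by Benjamini-Hochberg over all 16113 genes at a threshold of 0.05. SE is the absolute log2 fold change over the square root of F, and intervals of 95% use 13 or 12 residual degrees of freedom. CPM values use the TMM factors, and log2 CPM has a prior count of 2. Correlations over mice were tested two-sided with 100000 permutations. Gene positions and exon lengths are from GENCODE M21, and start regions from RefSeq GRCm38.p6, in which all 4 members matched. Of the listed genes, 1 (Drd1) was matched by its older symbol Drd1a. Tests were tried on simulated counts.

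The members, lists and tests were chosen with earlier results of these data known. Besides the members, the text names up to 6 subunits, 4 partners and 6 neighbours of smallest p, the 4 neighbours of highest r with Gabra2, and the genes of highest and lowest r with a mean of at least 1 CPM. Alternatives were DESeq2 1.42.0, limma-voom (3.58.1), scaling by RLE or by library size, 2 other low-count filters, single runs, other model terms, each sex alone and leaving out each mouse. Leaving out mice 11 and 12 together, the longest transcript as the length and the share of genes with an absolute r above 0.5 were chosen after seeing the data. Values of some single genes are not reported here.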

Additional observations from a re-analysis of the deposited data

How the results depend on the processing

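The Gabra2 difference between genotypes was above 0 in all 17 other settings (0.19 to 0.41) and in all 16 fits without a mouse, and passed the adjusted threshold in none. The number of genes past that threshold was 0 in every setting except the fit of the 6 males alone. That fit gave 242, and the number of genes it tested is not reported here. The 4-group fit gave 0 within males, and the cause was not tested. The 3 smaller genotype differences changed sign in places. Gabra4 (0.03) turned to -0.11 with the cortical score, -0.078 with the oligodendrocyte score, -0.072 in females alone and -0.012 without mice 11 and 12, Gabrg1 to -0.055 without those mice and Gabrb1 to 0.016 in males alone. Leaving out mice 11 and 12 also reversed the sex effects of Gabra2 (0.039) and Gabra4 (-0.046) and the sex difference of the Gabrg1 genotype effect (0.12), and limma-voom reversed the Gabra4 sex effect (-0.0057). The correlation of Gabra2 with Gabrb1 turned to 0.010 with RLE factors and 0.094 after centring on groups. The cause of these reversals was not tested.

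Leaving out each mouse in turn gave ranges across 0 for the correlation of Gabra2 with Gabrb1 (-0.23 to 0.23), of Gabrg1 with Gabra2 (-0.12 to 0.42) and of Gabrg1 with Gabra4 (-0.30 to 0.11). That of Gabrg1 with Gabrb1 ranged from -0.59 to -0.089. Ranges across 0 were also found for the sex effects of Gabra2 (-0.13 to 0.025), Gabra4 (-0.039 to 0.052) and Gabrg1 (-0.046 to 0.14), for the Gabra4 genotype effect (-0.020 to 0.091) and for the sex difference of the Gabrg1 genotype effect (-0.21 to 0.21). The log2 share of Gabra2 in the cluster ranged from 0.16 to 0.26. No paired analysis was possible because the genotypes share no replicate numbers. Counting error was below the biological spread for all 4 genes, by the least for Gabrb1 (3.60% against 7.17%).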
